A study of Mus musculus with 6 samples.

Results

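The 34 genes described here encode proteins of the complement system and soluble pattern recognition proteins of plasma, measured by RNA-seq in mouse liver. They were taken from a fixed list of complement components, regulators, receptors, lectin pathway proteins and pentraxins, with a floor of 0.5 CPM (counts of a gene scaled for library size) on the mean of all libraries. All 34 listed genes were found by symbol and passed that floor, of 23284 genes counted. The rule uses no difference between the groups.

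Liver RNA came from C57BL/6 mice aged 8 weeks that were fasted overnight. The 3 mice of the FGF19 group received FGF19 at 1 mg/kg for 6 h, and the 3 mice of the Vehicle group received vehicle, while fasting went on in both groups. FGF19 is the human form of an intestinal hormone, called FGF15 in the mouse, that acts on hepatocytes after a meal. No transgene or deletion is named for either group.

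Complement is a chain of plasma proteins, most of them made by hepatocytes, that marks microbes and damaged cells for uptake or lysis. Its 3 routes, the classical, lectin and alternative pathways, meet at the cleavage of C3, and the terminal components then assemble into a pore in the target membrane. Pentraxins and mannose-binding lectins are secreted receptors that recognise patterns on such surfaces and feed into these routes, and several of these proteins are acute phase proteins of the liver.

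The libraries held between 18994654 and 22920056 counts. A gene listed at 0 could still be worth 3 counts, or 0.131 to 0.158 CPM depending on the library, and this limit covers counting error only. Within groups the libraries differed by more than sampling noise, with a chi-square statistic per degree of freedom between 8.69 and 42.0, so all 6 were kept as separate mice. FGF19 replicates 1 and 2 were the closest pair at 8.69, while FGF19 replicate 3 differed from them by 31.6 and 42.0, and calls among the 34 genes that change when it is left out are given with and without it. Cyp7a1, the rate-limiting enzyme of bile acid synthesis and a known target of this hormone, was at 268 ± 44.1 CPM in Vehicle and 11.4 ± 1.75 CPM in FGF19 (SD, n = 3 each), and no mouse of one group reached the range of the other. The summed level of 7 hepatocyte markers was between 109458 and 114815 CPM in Vehicle and between 98507 and 110786 CPM in FGF19, and none of the 7 passed the test. Apoa2, Cps1 and Cyp2e1 among them were lower in FGF19 without overlap and at an unadjusted p under 0.05.

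The first question was which of these genes differed between the livers of FGF19 and Vehicle mice. By edgeR's quasi-likelihood test at an adjusted p under 0.05, 6 of the 34 genes rose (Apcs, Crp, Lbp, Cfb, C3 and C5ar1), 1 fell (Cd59a) and 27 did not pass. Over all 12559 genes tested, 4.56% rose and 2.84% fell, 7.41% in all. The median log2 fold change was 0.04 over the 34 genes and -0.0008 over all genes tested. The 3 mice of FGF19 did not overlap with those of Vehicle in 8 of the 34 genes on the higher side and in 2 on the lower side, against 14.5% and 13.8% of all genes tested, 28.3% in all. In whole liver, a different number of cells of a type and a different amount of RNA per cell cannot be told apart. The p-values measure the spread between these mice, and with 3 against 3 an exact permutation test of a single value cannot go below 0.1.

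**Figure D1:**
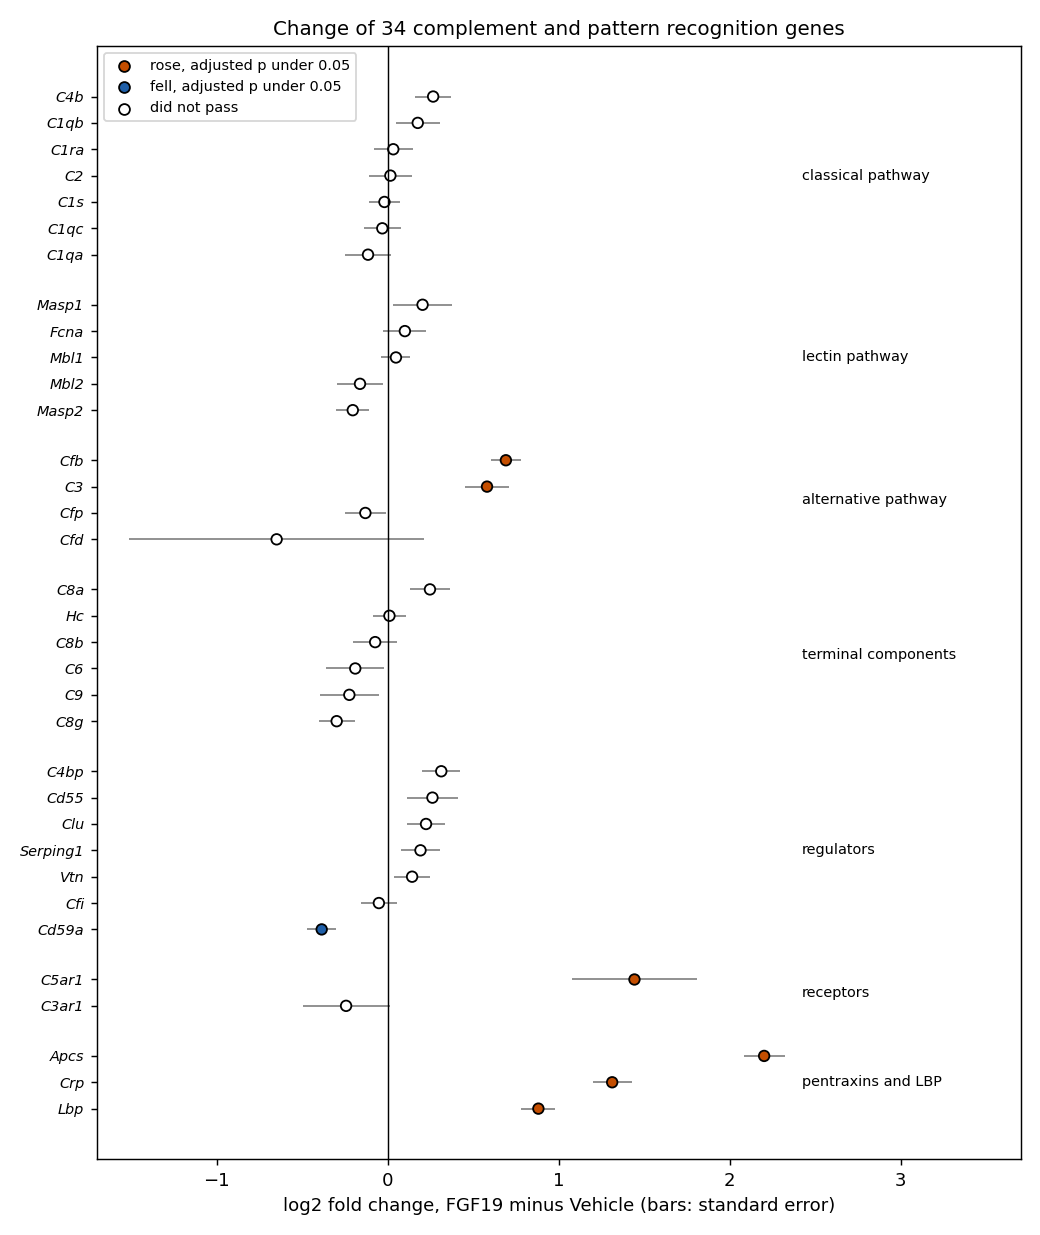
Log2 fold change of each of the 34 genes, FGF19 minus Vehicle, with its standard error from edgeR as bars, ordered by role. Apcs, Crp, Lbp, Cfb, C3 and C5ar1 rose and Cd59a fell, and the other 27 genes did not pass the test.

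The 3 plasma recognition proteins Apcs, Crp and Lbp all rose, and Apcs rose the most of the 34 genes. Apcs encodes serum amyloid P component, the pentraxin that is a main acute phase protein of the mouse, and lies at chr1:174824092-174825185 (mm9, minus strand). It was at 41.4, 31.9 and 39.6 CPM in the Vehicle mice and at 177, 157 and 185 CPM in the FGF19 mice. The lowest FGF19 mouse lay far above the highest Vehicle mouse, and the means were 37.7 ± 5.04 and 173 ± 14.5 CPM (SD, n = 3 each), a 4.6-fold rise. On the log2 scale the change was 2.20 (SE 0.119, 95% interval 1.93 to 2.47, edgeR adjusted p = 1.36e-05).

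Crp encodes C-reactive protein, the other short pentraxin, and lies at chr1:174628187-174630097 (mm9). It was at 336, 278 and 281 CPM in Vehicle and at 809, 759 and 656 CPM in FGF19, again without overlap. The means of 298 ± 32.3 and 741 ± 77.7 CPM (SD, n = 3 each) differed 2.48-fold, with a log2 fold change of 1.31 (SE 0.114, edgeR adjusted p = 0.000266). Lbp encodes lipopolysaccharide-binding protein, which hands bacterial lipopolysaccharide to Cd14, and lies at chr2:158132229-158158588 (mm9). It was at 201, 244 and 240 CPM in Vehicle and at 416, 404 and 443 CPM in FGF19. Lbp thus stood at 228 ± 23.9 against 421 ± 19.7 CPM (SD, n = 3 each), 1.84-fold higher (log2 0.88, SE 0.0997, edgeR adjusted p = 0.00108).

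**Figure D2:**
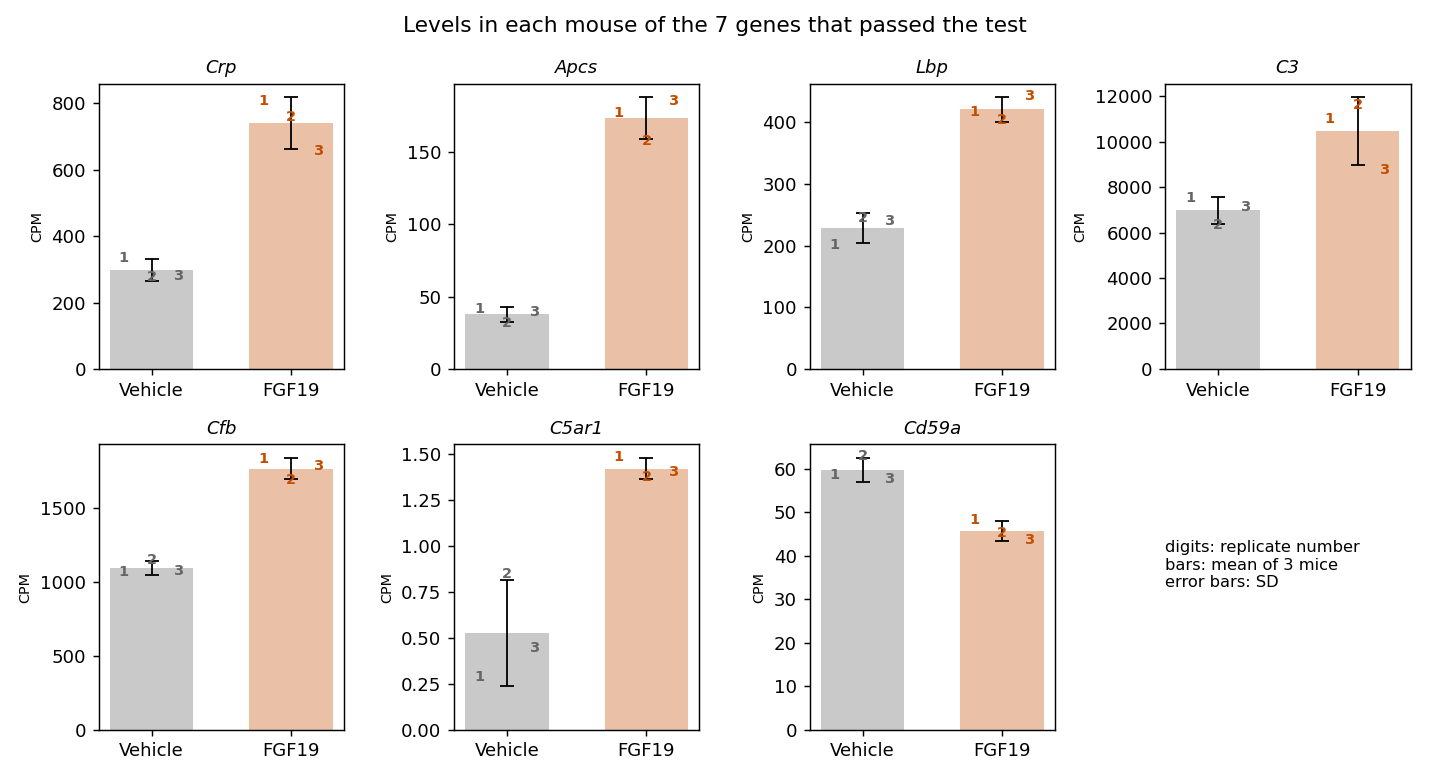
CPM of each mouse for the 7 genes that passed the test, with Vehicle and FGF19 side by side and 1 panel for each gene. In each panel the 3 FGF19 mice lie outside the range of the 3 Vehicle mice, above it in 6 genes and below it in Cd59a.

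Crp and Apcs stand 194 kb apart on chromosome 1 and both rose, by different amounts. The Crp reads exceeded the Apcs reads by 3.02, 3.12 and 2.83 on the log2 scale in the Vehicle mice and by 2.19, 2.27 and 1.82 in the FGF19 mice. The log2 ratio was therefore lower by 0.89 in FGF19, with no overlap between groups. Per length of exon, Crp was 4.12 to 5.04 times the level of Apcs in Vehicle and 2.05 to 2.80 times in FGF19.

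Genes that rose and have an entry in the RefSeq promoter table include Crp, Apcs and C3, whose windows are printed because they are the plasma proteins among the risers for which a sequence was at hand. Each runs 5′ to 3′ on the strand of its gene, from 250 bases before to 50 bases after the annotated start (GRCm38.p6). Capitals mark matches to the motifs searched on both strands, which were TTCNNNGAA for the STAT family, TTGCNNAA and TTNCNNAA for the C/EBP family, a pair of NF-kappaB patterns and 1 HNF1 pattern. TTCNNNGAA reads alike on both strands, and every TTGCNNAA is also a TTNCNNAA.
Crp, chr1:172697806-172698105, plus strand: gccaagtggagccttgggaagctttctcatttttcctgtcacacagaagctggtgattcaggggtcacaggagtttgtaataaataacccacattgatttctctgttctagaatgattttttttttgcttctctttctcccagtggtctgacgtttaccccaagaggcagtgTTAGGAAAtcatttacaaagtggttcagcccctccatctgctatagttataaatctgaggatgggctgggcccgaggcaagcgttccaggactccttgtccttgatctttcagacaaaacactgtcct
Apcs, chr1:172895005-172895304, minus strand: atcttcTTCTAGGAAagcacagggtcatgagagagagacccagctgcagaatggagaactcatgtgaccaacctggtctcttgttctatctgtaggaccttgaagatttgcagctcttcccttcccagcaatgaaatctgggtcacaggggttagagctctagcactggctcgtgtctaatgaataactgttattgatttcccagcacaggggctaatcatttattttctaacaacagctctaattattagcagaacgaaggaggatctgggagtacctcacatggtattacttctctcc
C3, chr17:57228087-57228386, minus strand: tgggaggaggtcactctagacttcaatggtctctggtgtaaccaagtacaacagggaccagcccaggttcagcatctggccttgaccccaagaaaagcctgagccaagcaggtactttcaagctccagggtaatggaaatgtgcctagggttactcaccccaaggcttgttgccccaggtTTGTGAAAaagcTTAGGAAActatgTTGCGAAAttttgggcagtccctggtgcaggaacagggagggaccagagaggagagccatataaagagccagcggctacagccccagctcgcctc

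The Crp window held 1 match, TTAGGAAA to TTNCNNAA on the minus strand, whose first base lay 78 bases before the start. The Apcs window held 1 match, TTCTAGGAA to TTCNNNGAA, with its first base 244 bases before the start. C3 held TTGTGAAA, TTAGGAAA and TTGCGAAA at 70, 58 and 45 bases before the start, the last of which also matches TTGCNNAA. Promoter windows were matched for 24 of the 34 genes. Of these 24, TTCNNNGAA was present in 5 (Apcs, C1ra, C8a, Masp2 and Vtn) and in 8.30% of all 32851 windows of the table. TTGCNNAA was present in 3 (C1ra, C3 and C9, against 10.8% of all windows) and TTNCNNAA in 11 (against 40.7%). The NF-kappaB patterns were present in C3ar1 and in Cd55, 1 each, against 1.63% and 1.75% of all windows, and the HNF1 pattern was found in none of the 24, against 0.00913% of all windows. These are letter matches and do not show binding.

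In the alternative pathway, which amplifies C3 cleavage on surfaces, 2 of the 4 genes rose, where 4.56% of all genes tested did. Cfb encodes factor B, the protease of the alternative C3 convertase, and lies at chr17:34993319-34999459 (mm9, minus strand). It was at 1066, 1147 and 1075 CPM in Vehicle and at 1832, 1691 and 1787 CPM in FGF19. The mice of each group lay close together, with means of 1096 ± 44.4 and 1770 ± 71.8 CPM (SD, n = 3 each), and Cfb was 1.61-fold higher in FGF19 (log2 0.69, SE 0.0878, edgeR adjusted p = 0.00195).

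C3, on which all routes of activation converge, lies at chr17:57343396-57367559 (mm9, minus strand) and had the most reads of the 34 genes, without regard to length. It was at 7515, 6347 and 7111 CPM in Vehicle and at 11014, 11599 and 8765 CPM in FGF19. FGF19 replicate 3 was the lowest of its group but stayed above every Vehicle mouse. The means of 6991 ± 593 and 10459 ± 1496 CPM (SD, n = 3 each) gave a 1.5-fold rise, with a log2 fold change of 0.58 (SE 0.131, edgeR adjusted p = 0.0280). The call of C3 was kept without FGF19 replicate 3 (log2 0.70, edgeR adjusted p = 0.0035) and lost when any other library was left out, with edgeR adjusted p of 0.0513, 0.0854 and 0.114 without Vehicle replicates 1, 2 and 3 and of 0.114 and 0.117 without FGF19 replicates 1 and 2.

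The other members of the alternative pathway did not pass the test. Cfp encodes properdin, which stabilises the convertase and comes largely from myeloid cells, and was at 17.7 to 20.8 CPM in Vehicle and 16.4 to 20.3 CPM in FGF19. Cfd encodes factor D, the adipocyte protease that activates factor B. Its values were scattered, at 1.86, 0.742 and 0.0496 CPM in Vehicle and at 1.12, 0.138 and 0.453 CPM in FGF19, of which Vehicle replicate 3 and FGF19 replicate 2 were at or under the limit of 3 counts. Adipocyte markers summed to between 20.4 and 33.6 CPM in Vehicle and between 36.4 and 49.3 CPM in FGF19. Of the 6 adipocyte markers 2 were tested. Fabp4 rose, while Cidec, which made up much of the sum, was at 22.7, 9.80 and 15.9 CPM in Vehicle and at 22.4, 26.3 and 33.8 CPM in FGF19 and did not pass the test (edgeR adjusted p = 0.115). Retn and Lep were at 0 in all libraries, and Adipoq and Plin1 were near 0. The part of adipose RNA in the Cfd values was not tested.

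In the classical pathway 0 of the 7 genes passed the test by edgeR, by DESeq2 or by limma-voom, and 1, C4b, was at an unadjusted p under 0.05. At that unadjusted threshold, 11.6% of all genes tested were higher and 11.3% lower, and 7.41% passed the edgeR test at the adjusted threshold. C1qa, C1qb and C1qc encode the 3 chains of the recognition protein C1q, which liver macrophages make, and were at 35.5 to 45.9 CPM in Vehicle and 32.3 to 51.8 CPM in FGF19. Their log2 fold changes were -0.11, 0.18 and -0.03 with 0.136, 0.127 and 0.109 as SE. The reads of C1qa relative to C1qb were lower by 0.29 on the log2 scale in FGF19, without overlap between groups, while those of C1qa relative to C1qc overlapped through FGF19 replicate 3. The 3 genes lie within 9.74 kb of each other on chromosome 4.

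Macrophage markers gave a mixed picture beside C1q. Their summed level was between 251 and 312 CPM in Vehicle and between 279 and 317 CPM in FGF19. Of 10 markers tested, Cd68, Mpeg1 and Marco rose, Cd163 fell, and Emr1, Clec4f, Cd5l, Csf1r, Timd4 and Lyz2 did not pass the test. The part of macrophage number in the C1q and receptor values was not tested.

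C1ra and C1s encode the proteases of the C1 complex. C1ra was at 243 to 313 CPM in Vehicle and 268 to 315 CPM in FGF19, and C1s at 403 to 479 and 426 to 453 CPM. Their log2 fold changes of 0.03 and -0.02 were smaller than their errors of 0.114 and 0.0924. C4b encodes C4, the thioester protein that C1s and the lectin proteases cleave. It was at 938, 1158 and 934 CPM in Vehicle and at 1196, 1185 and 1262 CPM in FGF19. The groups did not overlap for C4b, but the log2 fold change of 0.27 (SE 0.107) did not pass the test (edgeR adjusted p = 0.173).

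C2, the classical counterpart of factor B, did not pass the test, while its neighbour Cfb rose. C2 ends 87 bases from Cfb on chromosome 17, and both genes lie on the minus strand. C2 was at 85.1, 120 and 99.4 CPM in Vehicle and at 100, 98.1 and 110 CPM in FGF19, with a log2 fold change of 0.02 (SE 0.124, edgeR adjusted p = 0.957). The log2 ratio of C2 to Cfb reads was -3.65, -3.26 and -3.43 in Vehicle and -4.20, -4.11 and -4.02 in FGF19. It was lower by 0.66 in FGF19, with no overlap between the groups. Per length of exon, C2 was 0.0829 to 0.109 times the level of Cfb in Vehicle and 0.0567 to 0.0638 times in FGF19.

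In the lectin pathway 0 of the 5 genes passed the test by edgeR, DESeq2 or limma-voom, and 0 were at an unadjusted p under 0.05. Of all genes tested, 7.41% passed by edgeR, and 11.6% were higher and 11.3% lower at that unadjusted threshold. Mbl1 and Mbl2 encode the mannose-binding lectins A and C of the mouse. Mbl1 was at 127 to 140 CPM in Vehicle and 134 to 148 CPM in FGF19, and Mbl2 at 270 to 354 and 238 to 325 CPM. Fcna encodes ficolin A, a further recognition protein of this route, and was at 23.2 to 30.9 CPM in Vehicle and 27.1 to 32.9 CPM in FGF19. Their log2 fold changes were 0.05, -0.16 and 0.10 in that order.

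The proteases of the lectin pathway had opposite signs but neither passed. Masp1 was at 70.3, 66.0 and 79.9 CPM in Vehicle and at 93.6, 97.0 and 58.6 CPM in FGF19, where replicate 3 lay below every other mouse. Its log2 fold change was 0.20 (SE 0.174) with all mice and 0.41 without FGF19 replicate 3 (edgeR adjusted p = 0.0231). Masp2 was at 172, 189 and 179 CPM in Vehicle and at 153, 143 and 173 CPM in FGF19. Its log2 fold change of -0.20 (SE 0.0953) also became a call without FGF19 replicate 3, at -0.28 (edgeR adjusted p = 0.0434). Of the 100-base windows of Masp2 exons, 76.4% are shared with other exons, mainly those of the overlapping gene Tardbp, so reads there could not be assigned and its level is uncertain.

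**Figure D3:**
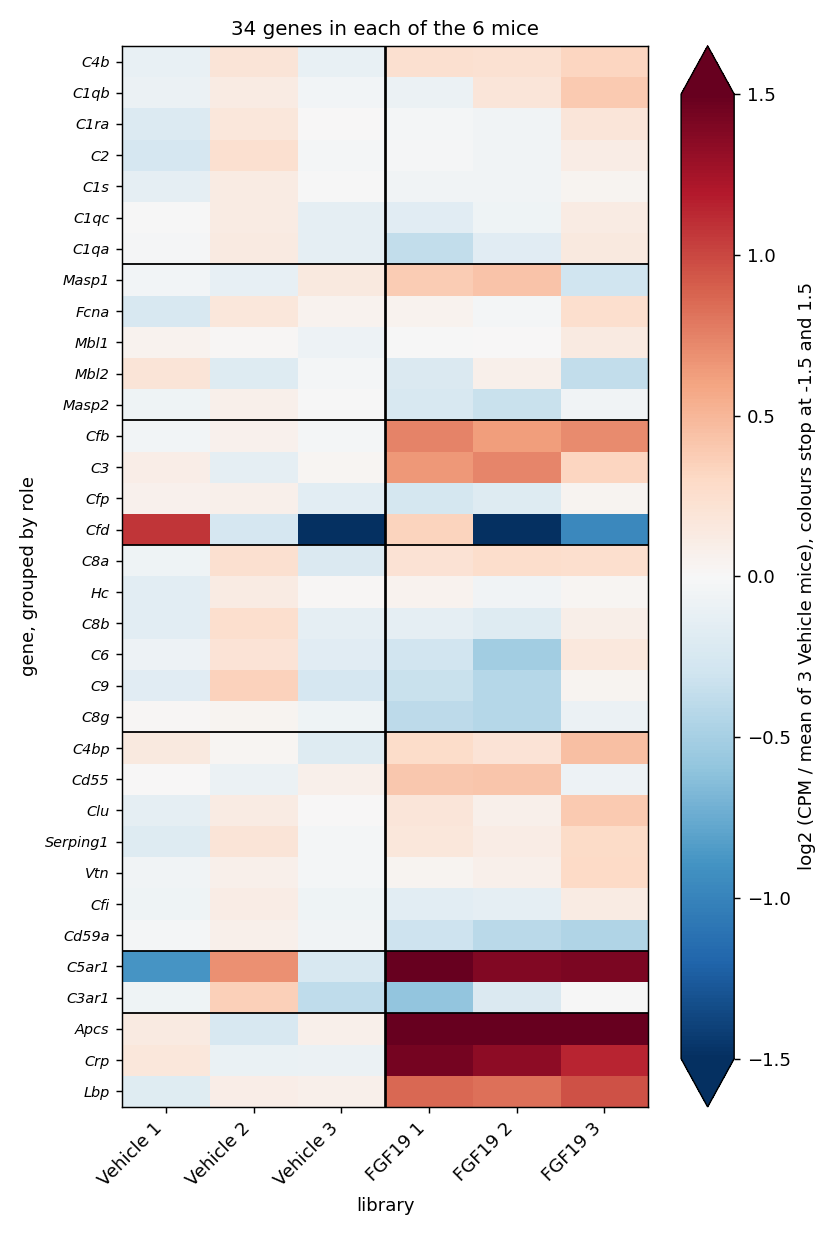
Log2 CPM of each of the 34 genes in each mouse, relative to the mean of the Vehicle mice, with genes grouped by role. The rows of Apcs, Crp and Lbp are higher in all 3 FGF19 mice, and FGF19 replicate 3 differs from the other two in Masp1.

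Among the terminal components 0 of the 6 genes passed the test by edgeR, DESeq2 or limma-voom, and 1, C8g, was at an unadjusted p under 0.05. Of all genes tested, 7.41% passed by edgeR, and 11.6% were higher and 11.3% lower at that unadjusted threshold. C8g encodes the gamma chain of C8, a lipocalin bound to the alpha chain, and was at 227, 230 and 214 CPM in Vehicle and at 170, 166 and 210 CPM in FGF19. The groups did not overlap, and the log2 fold change was -0.30 (SE 0.105, edgeR adjusted p = 0.125). Without FGF19 replicate 3, whose level was the highest of its group, C8g fell by 0.41 on the log2 scale (edgeR adjusted p = 0.0087). C8a and C8b encode the pore-forming alpha and beta chains. C8a was at 456 to 627 CPM in Vehicle and 619 to 639 CPM in FGF19, and C8b at 330 to 439 and 322 to 392 CPM.

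The chains of C8 are joined into 1 protein, and the reads of C8a were compared with those of each other chain. The C8a to C8g log2 ratio was 1.16, 1.45 and 1.09 in Vehicle and 1.87, 1.94 and 1.60 in FGF19, a difference of 0.57 with no overlap. The C8a to C8b log2 ratio was 0.63, 0.52 and 0.45 in Vehicle and 0.88, 0.99 and 0.70 in FGF19, a difference of 0.33 with no overlap. Per length of exon, C8a was 0.608 to 0.780 times the level of C8g in Vehicle and 0.863 to 1.10 times in FGF19. C8a and C8b lie 11.1 kb apart on chromosome 4.

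Hc, C6 and C9 complete this group. Hc encodes C5, which starts the assembly of the pore, and was at 607 to 737 CPM in Vehicle and 653 to 699 CPM in FGF19 (log2 fold change 0.01, SE 0.0966). C6 was at 210 to 272 and 164 to 263 CPM, and C9, which polymerises into the pore, at 374 to 566 and 333 to 460 CPM. Their log2 fold changes of -0.19 (SE 0.169) and -0.22 (SE 0.173) did not pass the test. C3 and Hc encode related proteins, and the log2 ratio of C3 to Hc reads was 3.11 to 3.63 in Vehicle and 3.67 to 4.15 in FGF19, higher by 0.56 without overlap.

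**Figure D4:**
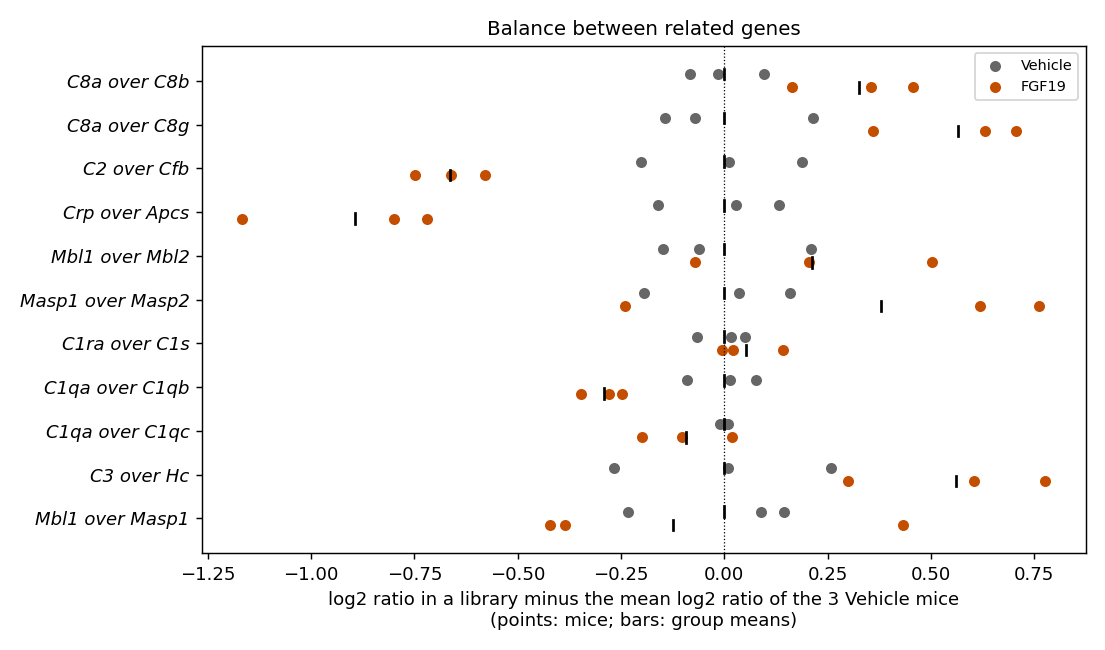
Log2 ratio of reads within each of 11 pairs of related genes, each mouse as a point, for Vehicle and FGF19. The groups do not overlap for C8a over C8b, C8a over C8g, C3 over Hc, C2 over Cfb, Crp over Apcs and C1qa over C1qb, and overlap for the other 5 pairs.

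The 11 ratios are given as a description and were not tested. Of the 6 whose groups did not overlap, C2 over Cfb, Crp over Apcs and C3 over Hc each hold a gene that passed the test by itself, and the 2 ratios with C8a share that gene. For single genes the share without overlap was 28.3% of all genes tested, and no such share was computed for ratios. In the other 5 (Mbl1 over Mbl2, Masp1 over Masp2, C1ra over C1s, C1qa over C1qc and Mbl1 over Masp1) the groups overlapped. In 3 of these the overlap came from FGF19 replicate 3 alone. The log2 ratio of Masp1 to Masp2 was -1.29, -1.52 and -1.16 in Vehicle and -0.70, -0.56 and -1.56 in FGF19. That of Mbl1 to Masp1 was 0.99, 1.05 and 0.67 in Vehicle and 0.52, 0.48 and 1.33 in FGF19. That of C1qa to C1qc was 0.09, 0.11 and 0.10 in Vehicle and -0.10, -0.0036 and 0.12 in FGF19. Without that replicate the groups did not overlap in these 3 pairs.

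Of the 7 regulators 1 fell and none rose by edgeR, DESeq2 or limma-voom, and C4bp was higher at an unadjusted p under 0.05. Of all genes tested, 4.56% rose and 2.84% fell by edgeR, and 11.6% were higher and 11.3% lower at that unadjusted threshold. Cd59a encodes a membrane-anchored protein that blocks the insertion of C9, and lies at chr2:103935958-103955508 (mm9). It was at 58.6, 62.9 and 57.6 CPM in Vehicle and at 48.2, 45.2 and 43.6 CPM in FGF19. All 3 FGF19 mice lay below all 3 Vehicle mice, with means of 59.7 ± 2.80 and 45.7 ± 2.33 CPM (SD, n = 3 each) and a log2 fold change of -0.39 (SE 0.0852, edgeR adjusted p = 0.0267). The call of Cd59a was kept without FGF19 replicate 3 (edgeR adjusted p = 0.0216) and lost without any other library, with edgeR adjusted p of 0.0714, 0.0955 and 0.0840 without Vehicle replicates 1, 2 and 3 and of 0.0651 and 0.109 without FGF19 replicates 1 and 2.

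C4bp encodes the C4b-binding protein, a plasma cofactor that limits the classical convertase. It was at 393, 362 and 311 CPM in Vehicle and at 429, 410 and 486 CPM in FGF19. The groups did not overlap, and the log2 fold change of 0.31 (SE 0.111) did not pass the test (edgeR adjusted p = 0.126). Cfi encodes factor I, which cleaves C3b and C4b, and was at 589 to 667 and 552 to 670 CPM. Serping1 encodes the C1 inhibitor and was at 839 to 1098 and 1038 to 1169 CPM. Their log2 fold changes were -0.05 (SE 0.106) and 0.19 (SE 0.113).

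Vtn and Clu encode vitronectin and clusterin, plasma proteins that keep the terminal complex out of membranes. Vtn was at 2222 to 2440 CPM in Vehicle and 2377 to 2851 CPM in FGF19, and Clu at 1538 to 1843 and 1788 to 2219 CPM. Their log2 fold changes of 0.14 (SE 0.104) and 0.22 (SE 0.113) did not pass the test. Cd55, the membrane protein that speeds the decay of convertases, was at 10.8, 10.1 and 11.4 CPM in Vehicle and at 14.2, 14.3 and 10.2 CPM in FGF19. Replicate 3 of FGF19 lay within the Vehicle range, and the log2 fold change was 0.26 (SE 0.151) with it and 0.41 without it (edgeR adjusted p = 0.0370).

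The receptors C3ar1 and C5ar1, which bind the peptides split from C3 and C5 and are best known on myeloid cells, had the lowest levels per length of the 34 genes. C5ar1 (chr7:16832092-16844889, mm9) was at 0.286, 0.847 and 0.447 CPM in Vehicle and at 1.49, 1.38 and 1.40 CPM in FGF19, which rests on 6, 16 and 9 counts against 32, 30 and 31 counts. The FGF19 mice lay above the Vehicle mice, and the log2 fold change was 1.44 (SE 0.368, 2.72-fold, edgeR adjusted p = 0.0458). C5ar1 passed the filter on low counts through all 3 FGF19 libraries and 1 Vehicle library. Its call was kept without Vehicle replicate 2 (log2 1.95, edgeR adjusted p = 0.0219), and was lost with edgeR adjusted p of 0.127 and 0.167 without Vehicle replicates 1 and 3 and of 0.136, 0.121 and 0.0508 without FGF19 replicates 1, 2 and 3.

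C3ar1 was at 2.33, 3.12 and 1.89 CPM in Vehicle and at 1.63, 2.11 and 2.44 CPM in FGF19. The groups overlapped, with a log2 fold change of -0.24 (SE 0.254). Beside the receptors, neutrophil markers summed to between 2.29 and 3.72 CPM in Vehicle and between 6.24 and 9.19 CPM in FGF19. Of the 9 markers 8 were in the files and 3 were tested, and Mpo, Camp and Ngp were near 0. S100a9 rose, from 0.238, 0.212 and 1.04 CPM in Vehicle to 1.67, 2.30 and 2.76 CPM in FGF19. Its values in Vehicle replicates 1 and 2 lay under the filter cutoff of 0.476 CPM. Csf3r was higher without overlap but did not pass the test (edgeR adjusted p = 0.0773). Cxcr2 overlapped between groups (edgeR adjusted p = 0.515). The part of neutrophils in the C5ar1 values was not tested.

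Compared between genes per length of exon, the levels ran from abundant plasma proteins to receptors at the edge of detection. In Vehicle, C3 stood at 1362 ± 116 CPM per kilobase (SD, n = 3), the rank of 57 among the 23284 genes counted, and Vtn at 1325 ± 65.2 with the rank of 58, which do not differ beyond their spread. Clu followed at 936, Serping1 at 527 and Cfb at 399 CPM per kilobase. At the low end were Cd55 at 4.25, Cfd at 0.957, C3ar1 at 0.569 and C5ar1 at 0.205 CPM per kilobase. Compared between groups on the same scale, C3 reached 2038 ± 291 and Cfb 644 ± 26.1 CPM per kilobase in FGF19.

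**Figure D5:**
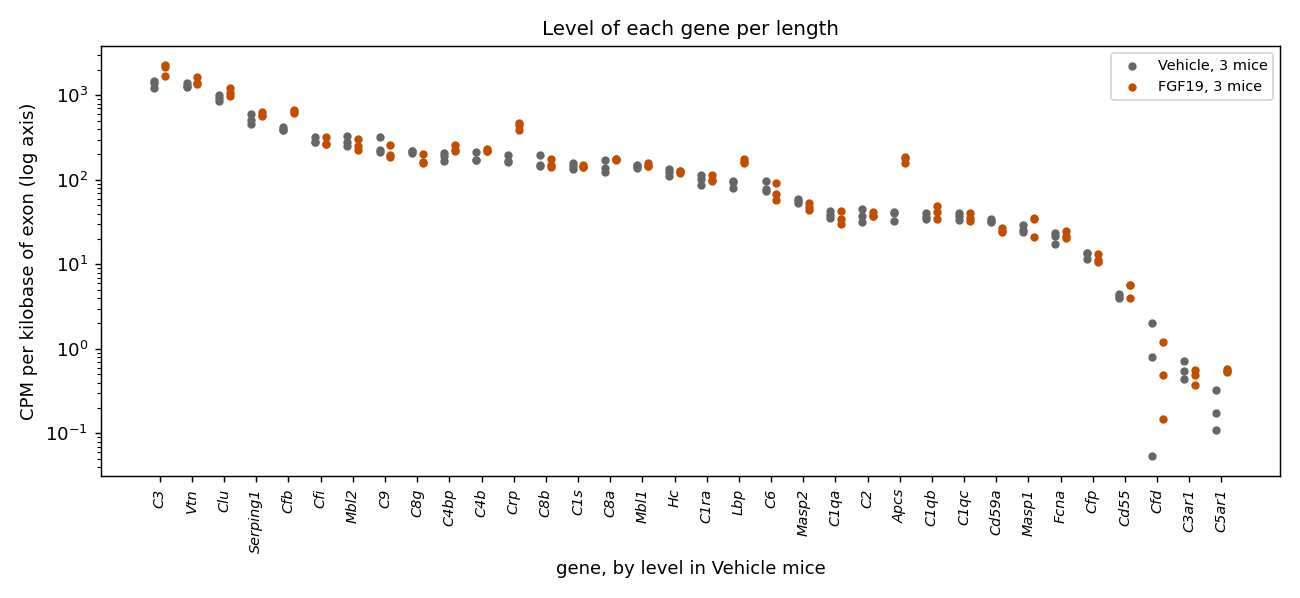
Level of each of the 34 genes per kilobase of exon, on a log axis, with 1 point for each mouse, and genes ordered by their mean in Vehicle. C3 and Vtn lead in Vehicle, Crp, Lbp and Apcs stand above their Vehicle points in FGF19, and Cfd, C3ar1 and C5ar1 lie at the low end.

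The 34 genes together held 1.99%, 2.02% and 1.95% of all counts in the Vehicle mice and 2.6%, 2.67% and 2.40% in the FGF19 mice, without overlap. C3 alone made up 31.2% to 38.2% of these counts in Vehicle and 35.2% to 44.6% in FGF19. The share counts reads and so weights the abundant genes.

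Reads of some of these genes could not be told apart from those of a near copy, since the counting kept reads with a single alignment. The share of 100-base exon windows found elsewhere in exons was 24.5% for C1ra (with C1rb), 17.1% for C4b (with C4a), 5.35% for Cd55 (with Daf2), 2.06% for C1s (with Gm5077) and 0.375% for Cd59a (with Cd59b). Apart from these and Masp2, no member had such a window. Strand was not used in the counting, so reads from a gene and an antisense partner on the same bases are not separated.

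A separate list of 40 genes held further complement regulators, receptors and collectins, with the genes F2, Plg, Klkb1, Thbd and Procr of coagulation and fibrinolysis. Of its 27 genes tested 4 rose and 1 fell, where 4.56% and 2.84% of all genes tested did, and the median log2 fold change was -0.09. At an unadjusted p under 0.05, 6 were higher and 7 lower (11.6% and 11.3% of all genes tested), and 5 were higher and 7 lower without overlap between groups (14.5% and 13.8% of all genes tested). Without FGF19 replicate 3, 6 rose and 2 fell, while 1016 rose and 927 fell of all 12692 genes tested in that fit. Itgam and Itgb2 encode the chains of complement receptor 3, the integrin that binds fragments of C3 on myeloid cells. Itgam was at 0.333, 0.530 and 1.04 CPM in Vehicle and at 4.97, 4.27 and 4.57 CPM in FGF19 (log2 fold change 2.85, SE 0.316, edgeR adjusted p = 0.00101). Itgb2 was at 4.61 to 5.76 CPM in Vehicle and 8.51 to 10.3 CPM in FGF19 (log2 0.81, edgeR adjusted p = 0.0128, and 0.0571 without FGF19 replicate 2). Both integrin chains rose, while Itgax, a further partner of Itgb2, did not pass the test at 0.619 to 1.48 against 1.40 to 1.88 CPM.

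Cpb2, the plasma carboxypeptidase that trims the peptides of C3 and C5, was at 248 to 300 CPM in Vehicle and 381 to 468 CPM in FGF19 (log2 0.63, edgeR adjusted p = 0.0106, and 0.0603 without Vehicle replicate 3). Cd93, a receptor of endothelial and myeloid cells, was at means of 7.37 and 10.7 CPM (log2 0.54, edgeR adjusted p = 0.0380). Its call was kept without FGF19 replicate 3 and lost without any other library, with edgeR adjusted p of 0.0859, 0.101 and 0.151 without Vehicle replicates 1, 2 and 3 and of 0.164 and 0.0945 without FGF19 replicates 1 and 2. Colec11, a collectin that can start the lectin pathway, was at 29.2, 39.0 and 29.3 CPM in Vehicle and at 19.3, 18.5 and 20.1 CPM in FGF19. It fell by 0.75 on the log2 scale (SE 0.127, edgeR adjusted p = 0.00878) without overlap between groups.

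Further pattern recognition genes, for the most part cell-bound or intracellular receptors with some secreted proteins such as Pglyrp2 and galectins, formed a separate list of 43, of which 32 were tested, with a median log2 fold change of 0.39. Of these, 6 rose and 0 fell by edgeR, where 4.56% and 2.84% of all genes tested did, with 0 that fell by DESeq2 or limma-voom, and 14 were higher and 2 lower at an unadjusted p under 0.05, where 11.6% and 11.3% of all genes tested were. Cd14, the partner of Lbp, was at 2.19, 2.65 and 2.98 CPM in Vehicle and at 6.23, 6.15 and 8.37 CPM in FGF19 (log2 1.41, SE 0.194, edgeR adjusted p = 0.00300). Ly96 and Tlr4, which act with Cd14, did not pass the test. Ly96 was higher without overlap at means of 2.21 and 3.12 CPM (edgeR adjusted p = 0.153), and Tlr4 was at 0.891 and 1.20 CPM. Without FGF19 replicate 3, 9 genes of this list rose and 1 fell, while 1016 rose and 927 fell of all 12692 genes tested in that fit.

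The scavenger receptors Marco and Msr1, found on macrophages, both rose. Marco was at 4.67, 4.24 and 9.53 CPM in Vehicle and at 28.5, 32.4 and 29.5 CPM in FGF19 (log2 2.29, edgeR adjusted p = 0.00105), and Msr1 at 5.86 to 7.57 and 11.5 to 15.7 CPM (log2 1.10, edgeR adjusted p = 0.00399). Zbp1, a cytosolic sensor of nucleic acids, was at 4.42 to 6.20 and 19.5 to 28.2 CPM (means 5.16 and 23.1 CPM, edgeR adjusted p = 0.000228). The remaining pair that rose were low, Clec4a2 at 0.381 to 0.744 against 1.30 to 2.13 CPM (log2 1.43, edgeR adjusted p = 0.0355) and Tlr1 at 0.424 to 0.893 against 1.63 to 1.84 CPM (log2 1.32, edgeR adjusted p = 0.0287). The call of Clec4a2 was lost when any library was left out, with edgeR adjusted p of 0.109, 0.0731 and 0.0841 without Vehicle replicates 1, 2 and 3 and of 0.0625, 0.0840 and 0.0552 without FGF19 replicates 1, 2 and 3. That of Tlr1 was kept without FGF19 replicate 3 and lost otherwise, with 0.0813, 0.0815 and 0.0555 without Vehicle replicates 1, 2 and 3 and 0.0838 and 0.106 without FGF19 replicates 1 and 2 as edgeR adjusted p. Marco is itself 1 of the macrophage markers, and without it their summed level was between 245 and 307 CPM in Vehicle and between 251 and 287 CPM in FGF19. The part of macrophages and neutrophils in these values was not tested.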

How the data were processed

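RNA-seq of 6 mouse livers was analysed. Per the file headers and the study's methods, the authors trimmed reads with Trimmomatic, aligned them with STAR to mm9 and assigned them to exons by featureCounts 1.5.2. The deposited values are raw counts per gene and were not normalized by the authors. Strand was not used, mates were counted separately, and reads aligned to several places or genes were left out. A deposited table of the authors' own comparison (log2 fold changes, mean log2 CPM, p-values and FDR) was not used.

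Counts were scaled by TMM, filtered by filterByExpr (12559 genes kept) and compared with edgeR 4.0.16 in R 4.3.3, by the quasi-likelihood test without covariates and Benjamini-Hochberg adjustment over all genes tested. This test was tested on simulated data with known changes. CPM values use TMM-scaled totals. Alternatives were DESeq2 1.42.0, limma-voom (limma 3.58.1), the likelihood ratio test, other scalings, filters and thresholds, a replicate block and leaving out each library. The members and lists were chosen with earlier results of these data known. Named genes were every member and, of the 2 further lists, those at an adjusted p under 0.05. Ly96, Tlr4 and Itgax fall outside this rule and were named for their roles after their values were seen. The macrophage marker sum without Marco was likewise added after seeing the data. Promoters are from RefSeq (GRCm38.p6), and the proteins of related members were not compared.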

Additional observations from a re-analysis of the deposited data

How the results depend on the processing

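Apcs, Crp, Lbp and Cfb were called in all 14 alternative fits, with log2 fold changes of 2.10 to 2.28, 1.25 to 1.41, 0.80 to 0.93 and 0.67 to 0.73. C3, Cd59a, C5ar1, Cd93, Tlr1 and Clec4a2 were called by DESeq2, limma-voom, the likelihood ratio test and under each scaling, and lost when most single libraries were left out, which leaves fewer samples. C5ar1, Itgam, Tlr1 and Clec4a2 were not tested with at least 1 CPM in every library. At an adjusted p under 0.01, 4 members rose and 0 fell.

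Same-numbered mice deviated with correlations of -0.03, -0.17 and -0.17. Mice of the 2 groups with different numbers had -0.12 to 0.22. These values gave no sign that the numbers pair the mice, but so few values cannot exclude it. With the replicate number as a block, 4 members rose and 0 fell by edgeR, with 2 lower at an unadjusted p under 0.05. Under this block the adjusted p was 0.0630 for C3, 0.0932 for Cd59a, 0.0843 for C5ar1, 0.0971 for Cd93 and 0.0693 for Tlr1, and 370 genes rose and 164 fell over all genes tested.

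Leaving out each library in turn gave 4 to 7 members that rose and 0 to 3 that fell, 236 to 1016 genes that rose and 91 to 927 that fell over all genes, 2 to 6 other complement genes that rose and 1 to 2 that fell, and 4 to 9 further pattern recognition genes that rose and 0 to 1 that fell. The highest counts for members came without FGF19 replicate 3. Members that changed sign in such fits had log2 fold changes of -0.111 to 0.036 (C1qc), -0.0578 to 0.124 (C1ra), -0.0794 to 0.0457 (C1s), -0.0962 to 0.153 (C2), -0.157 to 0.073 (C8b), -0.0606 to 0.0778 (Hc), -1.57 to 0.543 (Cfd), -0.142 to 0.0105 (Cfi) and -0.0084 to 0.191 (Fcna), and none was called.

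Other complement genes that fell numbered 3 by DESeq2, by the likelihood ratio test and at an unadjusted p under 0.01, and those that rose numbered 1 at an adjusted p under 0.01. Further pattern recognition genes that fell numbered 1 by the likelihood ratio test and at an unadjusted p under 0.01. Over all genes, 579 fell by the likelihood ratio test, 626 at an unadjusted p under 0.01, and 80 fell and 228 rose at an adjusted p under 0.01. Of the single-gene values under these alternatives, 569 kept direction and side of the threshold, 38 lost the call and 4 gained it (C8g, Masp1, Masp2 and Cd55, without FGF19 replicate 3). The cause was not tested. The planned comparison of protein sequences was not run. Cfd rests on 1 to 39 counts per library, C5ar1 on 6 to 32 and C3ar1 on 35 to 59.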
